A study of Mus musculus with 7 samples.

Results

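The receptors Lgr4, Lgr5 and Lgr6, the secreted R-spondins Rspo1, Rspo2, Rspo3 and Rspo4, and the ubiquitin ligases Znrf3 and Rnf43 were followed in sorted mouse mammary cells. These 9 genes were chosen by symbol, with earlier results of these data known, and all 9 were found among the 17096 genes on the arrays. Znrf3 and Rnf43 sit in the cell membrane and mark frizzled receptors for removal, which lowers the response of a cell to WNT proteins. An R-spondin that binds an Lgr receptor takes Znrf3 or Rnf43 off the surface, so that frizzled receptors stay and WNT signalling is stronger. In the mouse mammary gland Lgr5 is known as a gene of basal epithelial cells, and Rspo1 as a luminal factor.

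Gene expression was measured on 7 Affymetrix arrays of 3 groups. The embryonic group held 3 arrays of 2000, 2000 and 813 cells sorted from female Lgr5-IRES-GFP embryos at embryonic day 14, each a pool from 1 litter, for high CD49f (the integrin encoded by Itga6) and high Lgr5 reporter signal. The luminal group held 2 arrays of YFP+ cells from K8CREERT2/RosaYFP mice, in which the promoter of keratin 8 drives a recombinase that tamoxifen activates. The basal group held 2 arrays of YFP+ cells from K5CREERT2/RosaYFP mice, in which the keratin 5 promoter does so, and both adult groups were taken 8 weeks after tamoxifen. YFP marks the cells in which the recombinase was active and their descendants, so each adult group is what its promoter labelled. The adult arrays are marked as reanalysed, with a tissue field and protocols that repeat the embryonic text. Their age, strain and number of mice are not in the labels, and each p-value therefore covers array-to-array spread, which may be technical.

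The arrays had median log2 intensities from 5.05 to 5.08, and 68.4% to 69.8% of genes had log2 intensities above 4.61, a background level set by 86 probe sets of olfactory, vomeronasal and bitter taste receptor genes. The labelled lineages were checked against their markers: 9 of 11 basal markers were called lower in luminal cells, Krt5 and Krt14 among them, and 7 of 12 luminal markers were called higher. Embryonic and adult means lay close together: over 45033 probe sets the SD of embryonic minus adult was 0.09, and that of luminal minus basal 0.49. Embryonic replicates 1 and 2 also held identical values for 37.6% of probe sets, while no embryonic array shared a value with an adult one. Levels of embryonic against adult columns therefore describe the deposited table, and the comparison of luminal with basal cells was fitted on the adult arrays alone.

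Of the 9 genes, Lgr4 and Lgr5 were lower and Rspo1 was higher in luminal than in basal cells. Calls required a 2-fold or larger difference together with a Benjamini-Hochberg adjusted p, from limma over all genes, under 0.05. By this rule 3 of the 9 genes were called, and 6.81% of all genes tested were (3.24% lower and 3.57% higher in luminal cells). Arrays of the lineages were fully separated for 6 of the 9, as for 59.2% of all genes, and 6 of the 9 had an unadjusted p under 0.05 in limma, as had 31.6% of all genes. The median luminal minus basal difference was -0.43 over the 9 genes and 0.02 over all genes.

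**Figure D1:**
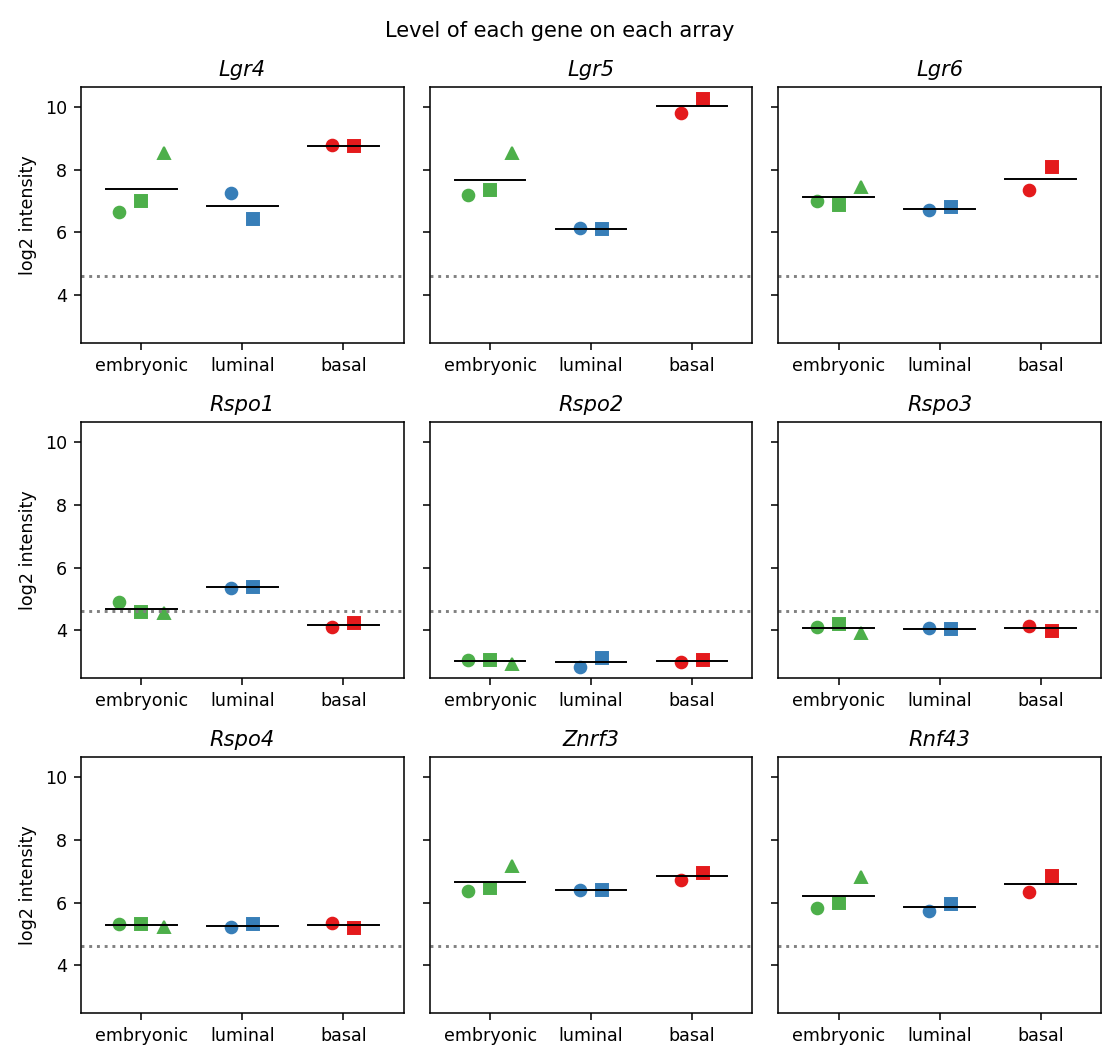
Log2 intensity (vertical axis) of each of the 9 genes on each array, with embryonic cells in green, luminal cells in blue and basal cells in red. Circles, squares and triangles are replicates 1, 2 and 3, horizontal bars are group means and the dotted line is the background level of 4.61. The Lgr5 points of luminal cells lie near 6.1 and those of basal cells near 10, and Rspo2 and Rspo3 lie under the dotted line on every array.

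Lgr5, a receptor for R-spondins that marks stem cells of the mouse intestine, had the strongest difference of the 9. Its intensity was 70.4 and 69.3 in luminal cells, against 885 and 1221 in basal cells. On the log2 scale these were 6.14 and 6.11 in luminal cells and 9.79 and 10.25 in basal cells. The luminal arrays nearly coincided and lay far under both basal arrays. Lgr5 was 14.9-fold lower in luminal cells (log2 difference -3.90 ± 0.18, SE, n = 2 and 2 arrays, 95% interval -4.34 to -3.45, limma adjusted p = 0.00169). By size it ranked 3 among the 554 genes called lower in luminal cells. Its luminal mean of 6.13 stayed above the background level of 4.61. With 1 adult array left out in turn, the difference lay between -4.13 and -3.66. The other Lgr5 probe set was dimmer, at 4.69 and 4.65 in luminal cells and 5.71 and 5.53 in basal cells, and its difference of -0.95 ± 0.13 (limma adjusted p = 0.0116 over probe sets) was just short of the 2-fold minimum. With the mean of both probe sets the difference was -2.42.

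Lgr4, the most widely expressed receptor of the 3 in mouse tissues, had log2 intensities of 7.26 and 6.44 in luminal cells, against 8.78 and 8.75 in basal cells. Luminal replicates were 0.82 apart, and both lay below the basal arrays, which were 0.03 apart. Lgr4 was 3.77-fold lower in luminal cells (-1.92 ± 0.27, SE, n = 2 and 2 arrays, 95% interval -2.58 to -1.25, limma adjusted p = 0.0110). When the error was pooled with that of the embryonic arrays, this call was lost (limma adjusted p = 0.0893). A dimmer Lgr4 probe set, below background in both lineages, had a difference of -0.19 ± 0.16, and the mean of both probe sets one of -1.06. Lgr6, the third receptor, had 6.71 and 6.81 in luminal cells, against 7.35 and 8.07 in basal cells. These arrays did not overlap, but the basal ones differed by 0.73, and the difference of -0.95 ± 0.25 did not pass (95% interval -1.56 to -0.34, limma adjusted p = 0.0522). With 1 adult array left out in turn, the Lgr6 difference lay between -1.31 (without basal replicate 1) and -0.59 (without basal replicate 2). After quantile normalization it was -1.09 (limma adjusted p = 0.0229), which was called. With genes below background left out the limma adjusted p was 0.0309, but the difference was short of 2-fold. With all 7 arrays in the fit it was not called (limma adjusted p = 0.0731). With 50 added to each intensity the difference was -0.72 (limma adjusted p = 0.160), also not called.

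Rspo1 was the 1 ligand gene with a called difference, and its direction was opposite to that of Lgr4 and Lgr5. Its log2 intensity was 5.36 and 5.38 in luminal cells, against 4.09 and 4.25 in basal cells. Replicates differed by at most 0.15, and every luminal array lay above every basal one. Rspo1 was 2.30-fold higher in luminal cells (1.20 ± 0.12, SE, n = 2 and 2 arrays, 95% interval 0.89 to 1.51, limma adjusted p = 0.00536). The signal was dim, at an intensity of 41.1 and 41.6 in luminal cells and 17.1 and 19.0 in basal cells. The basal mean of 4.17 lay below the background level, so the size of the difference is not exact. The luminal mean of 5.37 lay above that level but below one of 5.77 drawn, after the data were seen, from 35 genes restricted to other organs. With 50 added to each intensity before taking log2, the difference was 0.43 and no longer 2-fold.

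The other ligand genes did not pass the test. Rspo2, which the limb bud and lung of the mouse use, ranged from 2.84 to 3.11 over the adult arrays and stayed below background in every group (difference -0.04, 95% interval -0.39 to 0.31). Rspo3, a ligand of endothelial and stromal cells in mice, ranged from 3.99 to 4.13 over the adult arrays, also below background (-0.01, 95% interval -0.32 to 0.30). Rspo4, known for its part in nail growth, had 5.21 and 5.32 in luminal cells and 5.36 and 5.20 in basal cells (-0.01, 95% interval -0.34 to 0.31). The lineages overlapped for all 3. A value below background does not show that a gene was silent.

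The ligases Znrf3 and Rnf43, which WNT signalling itself induces in the mouse intestine, were not called. Rnf43 had 5.73 and 5.96 in luminal cells, against 6.34 and 6.86 in basal cells. Its arrays did not overlap, and its difference was -0.75 ± 0.20 (95% interval -1.26 to -0.24, limma adjusted p = 0.0604). With 1 adult array left out in turn, the difference lay between -1.01 (without basal replicate 1) and -0.49 (without basal replicate 2). Znrf3 had 6.41 and 6.39 in luminal cells, against 6.73 and 6.94 in basal cells, with a difference of -0.43 ± 0.13 (95% interval -0.76 to -0.10, limma adjusted p = 0.0819). A second Znrf3 probe set gave -0.42 ± 0.24 (limma adjusted p = 0.312 over probe sets). The intervals given, which are those of the brightest probe set of each gene, lay below 0.

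**Figure D2:**
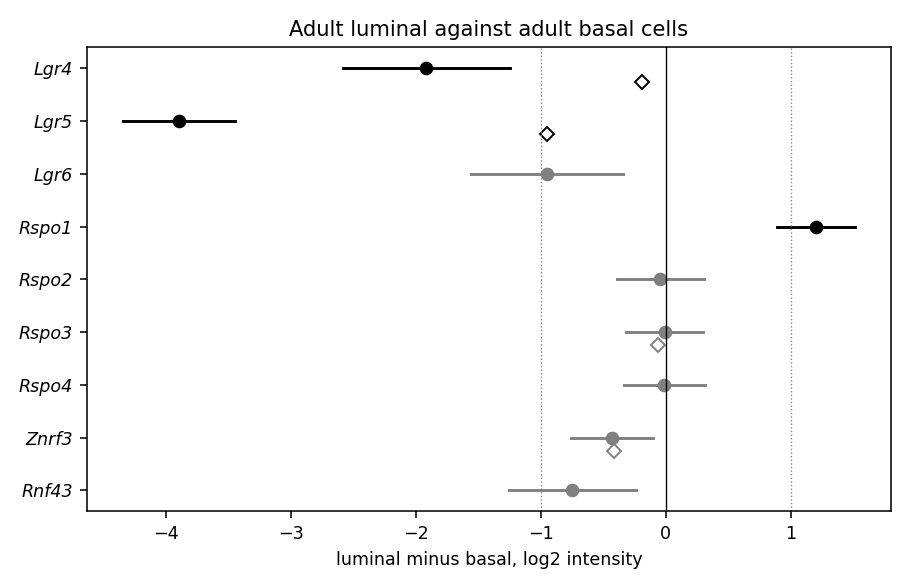
Luminal minus basal difference in log2 intensity (horizontal axis) for each of the 9 genes, with n = 2 and 2 arrays. Filled circles are the probe set with the highest mean, lines are 95% intervals from limma, open diamonds are a gene's other probe set, black marks called genes and grey the others, and dotted lines mark a 2-fold difference. Lgr5 lies at -3.90, Lgr4 at -1.92 and Rspo1 at 1.20.

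The bases before the start sites of Lgr4 and Rspo1 are shown because these called genes ran in opposite directions. RefSeq windows (GRCm38.p6) were matched for 5 of the 9 genes, Lgr4, Lgr6, Rspo1, Rspo4 and Rnf43. Each sequence below holds the 250 bases before the start site, on the + strand, with capitals for any match to the searched motifs. The Lgr4 window is chr2:109917397-109917646 and the Rspo1 window chr4:124986180-124986429.
Lgr4: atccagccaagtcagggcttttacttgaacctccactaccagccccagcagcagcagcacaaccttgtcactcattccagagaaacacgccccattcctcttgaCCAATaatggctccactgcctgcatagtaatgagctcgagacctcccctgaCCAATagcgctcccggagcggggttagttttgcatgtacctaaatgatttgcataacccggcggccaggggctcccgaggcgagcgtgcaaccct
Rspo1: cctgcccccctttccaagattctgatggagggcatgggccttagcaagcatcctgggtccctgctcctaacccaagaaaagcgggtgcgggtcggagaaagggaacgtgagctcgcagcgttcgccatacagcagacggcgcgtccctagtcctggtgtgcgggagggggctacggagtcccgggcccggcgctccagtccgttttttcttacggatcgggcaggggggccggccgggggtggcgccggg
Motifs were searched on both strands as CTTTGNT (bound by TCF and LEF factors), CCAAT (the CCAAT box), GGGCGG (the GC box) and TATAAA (the TATA box), and none of them overlapped in these windows. The Lgr4 window held the CCAAT box at 146 to 142 and at 95 to 91 bases before the start site, and the Rspo1 window held none of the 4 motifs. Among 32817 mouse windows of the same length, 33.8% held CCAAT, 32.7% GGGCGG, 16% CTTTGNT and 12.4% TATAAA. G and C made up 55.6% of the Lgr4 window and 66.8% of the Rspo1 window, against a median of 52.4% over all windows.

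Markers of other cell types had negative median differences. Of 12 fibroblast markers 2 were called lower in luminal cells (median -0.91) and of 12 endothelial markers 2 (median -1.26). None of 11 leukocyte markers was called (median -0.25), and 1 of 8 melanocyte, Schwann and nerve markers was called lower (median -0.19). Over all genes 3.24% were called lower. An unadjusted p under 0.05 in limma was found for 10 of 12 endothelial and 6 of 12 fibroblast markers, against 31.6% of all genes. It was found for 2 of 11 leukocyte markers and 2 of 8 melanocyte, Schwann and nerve markers. Summed intensities of the fibroblast markers were 2702 and 4451 in luminal cells and 6274 and 7648 in basal cells. Those of the endothelial markers were 459 and 805 in luminal cells and 1130 and 1828 in basal cells. Those of the leukocyte markers were 326 and 521 in luminal cells and 547 and 657 in basal cells. Luminal replicate 2 was the higher in all 3 sums. Luminal replicate 2 minus 1 was -0.82 for Lgr4, -0.02 for Lgr5, 0.10 for Lgr6, -0.02 for Znrf3 and 0.23 for Rnf43. Basal replicate 2 minus 1 was -0.03 for Lgr4, 0.46 for Lgr5, 0.73 for Lgr6, 0.22 for Znrf3 and 0.52 for Rnf43. The median of that basal difference was 0.73 over endothelial, 0.29 over luminal, 0.25 over fibroblast, 0.12 over basal and 0.01 over leukocyte markers. It was -0.09 over melanocyte, Schwann and nerve markers. The part of other cells in these differences was not tested, and in sorted bulk samples fewer cells of a type and less RNA per cell cannot be told apart. Of the 11 leukocyte markers, 7 were above background in an adult group.

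**Figure D3:**
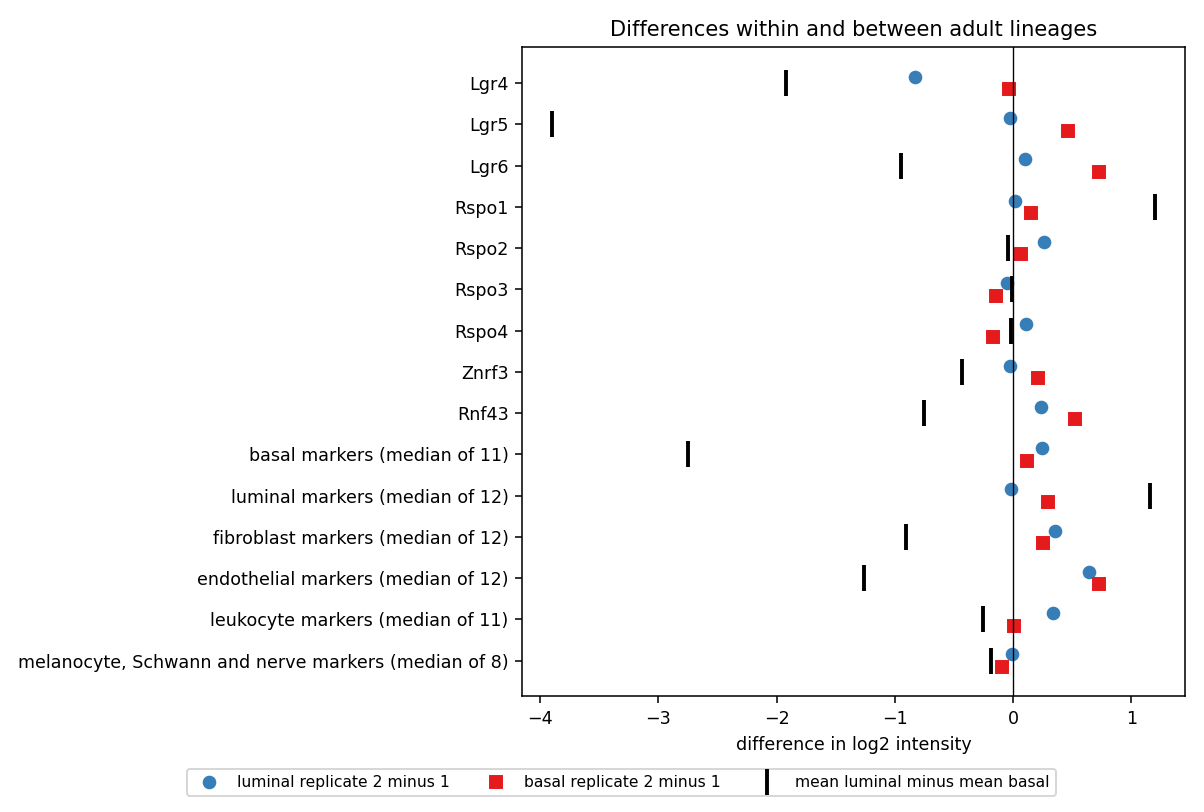
Differences in log2 intensity (horizontal axis) for the 9 genes and for the median of each list of cell type markers. Blue circles are luminal replicate 2 minus 1, red squares basal replicate 2 minus 1, and black ticks the luminal mean minus the basal mean. The Lgr5 tick at -3.90 lies far outside its replicate differences of -0.02 and 0.46, whereas those of Lgr6 lie at 0.10 and 0.73 against a tick at -0.95.

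Genes with which these 9 act were described from lists. For comparison, 6.81% of all genes were called (3.24% lower in luminal cells), and 31.6% had an unadjusted p under 0.05 in limma. Among frizzled and LRP receptors, from which Znrf3 and Rnf43 remove frizzleds, 3 of 12 were called, all lower in luminal cells, and the median was -0.59. Of these 12, 8 had an unadjusted p under 0.05 in limma. Fzd7, a frizzled receptor, had 5.85 and 5.77 in luminal cells, against 7.02 and 8.21 in basal cells (-1.80 ± 0.37, limma adjusted p = 0.0290). Fzd1 had a difference of -1.43 ± 0.23 (limma adjusted p = 0.0154) and the co-receptor gene Lrp6 one of -1.19 ± 0.16 (limma adjusted p = 0.0100). Fzd2 (-0.91) and Fzd3 (-0.62) were not called. Of 19 WNT ligand genes 3 were called, 6 had an unadjusted p under 0.05 in limma, and the median was -0.00. Wnt4, a progesterone target of the mouse mammary gland, was higher in luminal cells at 9.13 and 9.32, against 7.32 and 7.67 in basal cells (1.73 ± 0.17, limma adjusted p = 0.00447). Wnt7b was higher too (1.71 ± 0.20) and Wnt10a lower (-1.95 ± 0.29), while Wnt1 (-0.27) and Wnt2 (-0.15) were below background in both lineages. Rspo1, Wnt4 and Wnt7b were thus higher in the same lineage.

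Targets and feedback genes of beta-catenin were called in both directions. Of 17 measured, 3 were called lower and 1 higher in luminal cells, with a median of -0.46. Over all genes 3.24% were called lower and 3.57% higher. An unadjusted p under 0.05 in limma was found for 8 of the 17, against 31.6% of all genes. Wif1, a secreted WNT inhibitor, had 4.17 and 4.27 in luminal cells, below background, against 8.19 and 8.76 in basal cells (-4.26 ± 0.21, limma adjusted p = 0.00169), so the size of this difference is not exact. The membrane inhibitor gene Apcdd1 (-1.17 ± 0.23) and the Dishevelled inhibitor gene Nkd2 (-1.03 ± 0.17) were lower as well. Ccnd1, which encodes cyclin D1, had the opposite direction and was higher in luminal cells (1.16 ± 0.13, limma adjusted p = 0.00619). Axin2, the usual readout of the pathway, had 6.26 and 6.54 in luminal cells, against 6.79 and 7.20 in basal cells, and was not called (-0.60 ± 0.19, limma adjusted p = 0.0847). Nkd1 had a difference of -0.49.

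Of 15 measured genes enriched in Lgr5+ stem cells of the mouse intestine, 13 were not called and 1 was called in each direction, with a median of -0.24. Of the 15, 7 had an unadjusted p under 0.05 in limma. Over all genes 6.81% were called and 31.6% had such a p. The water channel gene Aqp1 was lower in luminal cells (-1.69 ± 0.34, limma adjusted p = 0.0263) and Prom1, which encodes the CD133 antigen, higher (1.86 ± 0.18, limma adjusted p = 0.00441). Ascl2, a transcription factor gene of intestinal stem cells, had a difference of -0.01, and Smoc2 one of -0.78, neither called. Among relatives of Znrf3 and Rnf43 in the PA-TM-RING family, 2 of 8 were called lower in luminal cells, Rnf150 (-1.90 ± 0.15) and Rnf128 (-1.14 ± 0.26, limma adjusted p = 0.0389). Of these 8, 4 had an unadjusted p under 0.05 in limma. Rnf13 (0.66) and Rnf130 (0.62) were not called, and the median was 0.07. None of 11 other binding partners was called in limma, with 0 at an unadjusted p under 0.05, among them the Dishevelled genes Dvl1 (0.36) and Dvl2 (-0.57), and the median was 0.09. None of 3 measured hormone receptors of the same structural family was called either, with 0 at an unadjusted p under 0.05 in limma. Fshr (-0.07) and Tshr (0.03) lay below background. Of 6 measured genes of hormone receptor positive luminal cells, 5 were called higher in luminal cells (median 1.80), including Foxa1 (2.71 ± 0.18), Cited1 (2.24 ± 0.13), the progesterone receptor gene Pgr (1.88 ± 0.18) and Wnt4. The basal mean of Foxa1, 4.54, lay below background, so the size of its difference is not exact. Tnfsf11, which encodes the RANK ligand that Lgr4 can bind, had a difference of 0.18 below background.

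**Figure D4:**
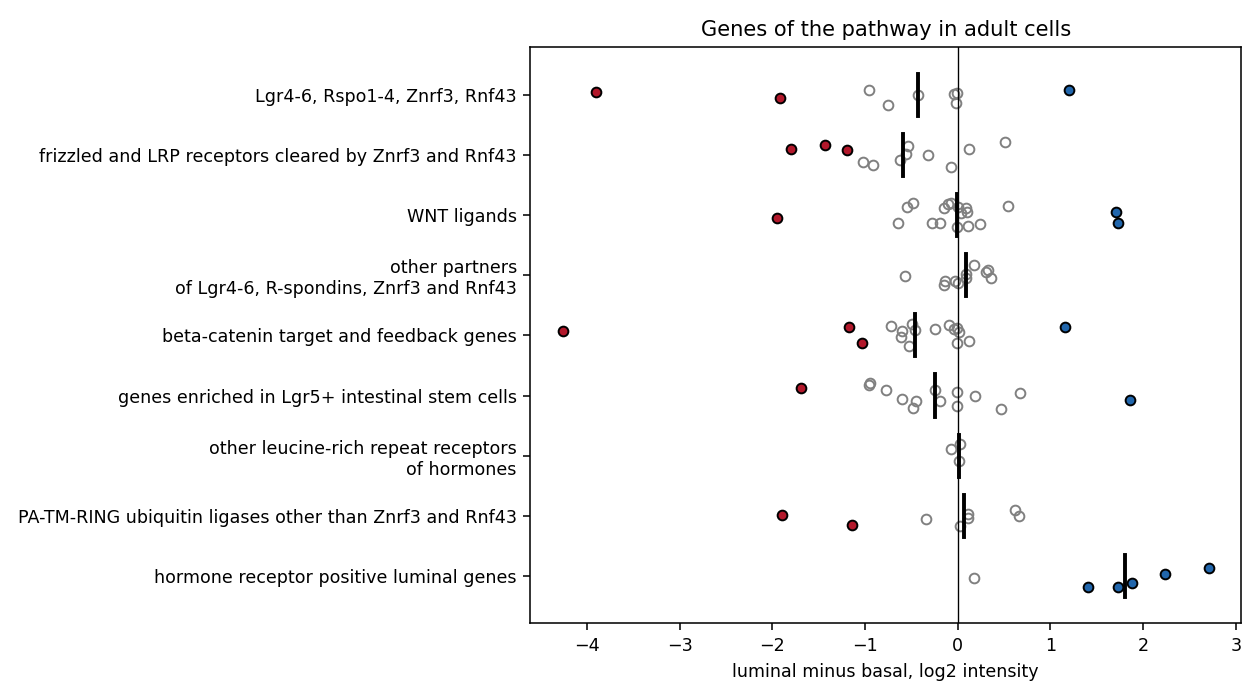
Luminal minus basal difference in log2 intensity (horizontal axis) of each measured gene of 9 lists, 1 list per row. Points are genes, red where called lower and blue where called higher in luminal cells, open where not called, and black ticks are medians. Frizzled and LRP receptors have 3 red and 9 open points, hormone receptor positive genes 5 blue and 1 open, and the medians run from -0.59 to 1.80.

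The genes whose pattern over the 4 adult arrays was closest to Lgr5 were Gfra1, Wif1, Ecrg4, Col14a1 and Ptx3. Closeness was the root mean square difference between log2 profiles, each centred on its own mean, over 11893 other genes above background, and it ran from 0.16 for Gfra1 to 0.27 for Ptx3. Gfra1, a receptor for the growth factor GDNF, had 6.08 and 6.04 in luminal cells, against 9.84 and 9.86 in basal cells (-3.79). Closest to Lgr4 were Schip1, Chst11, Gpc6, F2r and Gfra2, with distances from 0.12 to 0.15. All 5 shared with Lgr4 a lower value in luminal replicate 2 than in replicate 1, which follows from how they were picked. Schip1 had 5.71 and 5.19 in luminal cells and 7.27 and 7.38 in basal cells. Closest to Rspo1 were Krt19, Ddt, Med24, Nfu1 and Abhd14b, with distances from 0.02 to 0.04. Krt19, a luminal keratin gene, had 10.15 and 10.15 in luminal cells, against 8.92 and 9.03 in basal cells (1.18). With 4 arrays these neighbours are a description only.

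In the embryonic arrays the receptor and ligase genes, each by its brightest probe set, were highest in replicate 3, the one of 813 cells. Lgr5, the gene whose reporter was sorted for, had 7.18, 7.34 and 8.53 in embryonic replicates 1, 2 and 3. Lgr4 had intensities of 101, 128 and 369, the widest spread of the 9 on the log2 scale (SD 0.996, n = 3). Lgr6 had 7.01, 6.89 and 7.46. Replicate 3 was the highest for all 3 receptors and replicates 1 and 2 lay close together. Znrf3 had 6.37, 6.45 and 7.17 and Rnf43 had 5.84, 5.99 and 6.81, in the same order. Among the 500 genes of nearest embryonic mean, the SD of Lgr4 lay at percentile 99.6, that of Lgr5 at 98.2, Rnf43 at 93.8, Znrf3 at 87.8 and Lgr6 at 71.4. Of the R-spondins, Rspo2 lay at 77.2, Rspo3 at 76.4, Rspo1 at 70.4 and Rspo4 at 14.8. Values tied between embryonic arrays make the SD of a gene smaller, which can raise the percentiles of other genes. Replicate 3 was the lowest for all 4 R-spondin genes, with differences of -0.24 to -0.07 from the mean of replicates 1 and 2, and Rspo1 had 4.89, 4.59 and 4.56. Rspo2 (3.05) and Rspo4 (5.31) held identical values in replicates 1 and 2.

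The same difference was taken over other genes. Replicate 3 minus the mean of replicates 1 and 2 had a median of 0.52 over the 9 genes and -0.03 over all genes. Over the 554 genes called lower in luminal cells it was -0.28, and over the 611 called higher it was 0.11. Replicate 3 was higher for 36.6% of the genes called lower and for 52.7% of those called higher, against 34.7% of all genes. Genes tied over the embryonic arrays counted as not higher, so the remaining genes need not be lower in replicate 3. It was -0.32 over the beta-catenin targets, where Axin2 had 7.12, 6.83 and 6.22, and -0.02 over frizzled and LRP receptors. Endothelial markers had a median of -0.48, leukocyte markers -0.27 and fibroblast markers -0.26. Luminal markers had one of -0.16, melanocyte, Schwann and nerve markers -0.15 and basal markers -0.11. Summed intensities were 5059, 4730 and 3730 for the fibroblast markers and 818, 850 and 505 for the endothelial markers, lowest in replicate 3. The part of these in the spread of the 9 genes was not tested. With 1 array of fewer cells, replicate and cell number cannot be told apart. Itga6, the other sort gene, had 9.62, 9.71 and 10.10.

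None of the 9 was called against either adult lineage in limma's fit of all 7 arrays, where 0.0702% of all genes were called against basal and 0.0234% against luminal cells. At an unadjusted p under 0.05, 3 of the 9 differed from basal cells, where 9.25% of all genes did, and 2 differed from luminal cells, where 12.0% did. Lgr5 averaged 7.68 ± 0.74 in embryonic cells (SD, n = 3), against 10.02 ± 0.33 in basal cells (SD, n = 2), a difference of -2.34 (95% interval -3.31 to -1.36, limma adjusted p = 0.174). Against 6.13 ± 0.02 in luminal cells (SD, n = 2) it was 1.56 (95% interval 0.58 to 2.53, limma adjusted p = 0.221). Without embryonic replicate 3 these differences were -2.76 and 1.14, and both were called (limma adjusted p = 0.00994 and 0.0332). The embryonic spread in that fit came from replicates 1 and 2 alone, which held identical values for 37.6% of probe sets. With replicates 1 and 2 averaged as 1 sample, chosen after seeing the data, the differences were -2.13 and 1.77. Neither was called then (limma adjusted p = 0.326 and 0.313). Rspo1 averaged 4.68 ± 0.18 in embryonic cells (SD, n = 3), 0.51 above basal and -0.69 relative to luminal cells (limma adjusted p = 0.291 and 0.144). These differences carry the limit given above for levels set across embryonic and adult columns.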

How the data were processed

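Per the labels' protocols, cDNA amplified from the RNA of sorted cells was put on Affymetrix arrays; the protocol text attached to the adult arrays describes the embryonic preparation. The deposited values were linear probe set intensities, 1 column per array, and RMA and affy are named in the submitters' processing notes, with settings not given in the sources used here. Log2 of the deposited intensity was taken. From 45141 rows, 104 controls and 4 empty rows were removed. Of the remaining 45033 probe sets, 28895 had 1 symbol in the platform annotation, 551 had several and 15587 were unlisted. Each of 17096 genes was represented by its brightest probe set, by mean over the 7 arrays. Limma 3.58.1 in R 4.3.3 fitted luminal minus basal on the 4 adult arrays (2 residual degrees of freedom, prior 3.73) and embryonic contrasts on all 7 (4 residual, prior 2.29), with Benjamini-Hochberg adjustment over all genes, and was tested on simulated data. The background level was the 95th percentile of 86 silent probe sets, an intensity of 24.5. The number of arrays limits the precision.

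The genes and lists were chosen with earlier results of these data known. Named genes were the 9 members, for each list at most 4 called genes a direction (smallest adjusted p first) and the first 2, at most, that were not called, and the 5 closest profiles per called member. Cell type markers were listed for basal, luminal, fibroblast, endothelial, leukocyte, and melanocyte, Schwann and nerve cells. Alternatives covered probe sets, dim genes, normalization, the variance prior, a replicate block, replicates left out, fold minimum, the arrays fitted, an intensity offset and the background percentile. Plots used Python 3.11.15 and matplotlib 3.10.9.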

Additional observations from a re-analysis of the deposited data

How the results depend on the processing

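Lgr4, Lgr5 and Rspo1 kept their direction under all alternatives of luminal minus basal. With the mean of a gene's probe sets the differences were -2.42 for Lgr5 and -1.06 for Lgr4, smaller by over 1.5 times. The dimmer probe sets of Lgr4 and Lgr5 were not called on their own. Other calls were lost for Lgr4 with all 7 arrays in the fit (limma adjusted p = 0.0893) and for Rspo1 with 50 added to each intensity (0.43). With 1 adult array left out, 3 to 5 of the 9 genes were called, 5 without basal replicate 1, where Lgr6 and Rnf43 were added. The count over all genes was 1165, ran from 519 (without luminal replicate 1) to 1443 with 1 array left out, and was 2879 with no fold minimum and 356 with 50 added.

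The embryonic counts were small and moved with most settings. Against basal cells 12 genes were called, 25 with the mean of a gene's probe sets, 5 with every probe set on its own, 19 with dim genes left out, 21 with a trended prior, and 1 with embryonic replicates 1 and 2 averaged, an alternative chosen after seeing the data. Against luminal cells 4 were called, and 16, 7 and 10 under the first 3 of these settings and 1 with the average. With 1 array left out the counts ran from 0 to 89 against basal and from 1 to 217 against luminal cells, both highest without embryonic replicate 3, and 0 to 1 of the 9 genes was called (Lgr5). The cause was not tested.

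With the replicate number as a block (replicate block), 1208 genes were called in luminal minus basal, 88 in embryonic minus basal and 182 in embryonic minus luminal, with 1 of the 9, Lgr5, called in each embryonic comparison; no adult array has the number 3, so embryonic replicate 3 adds nothing to these differences. The luminal and basal replicate differences correlated at 0.08 across the 17096 genes. The labels state no pairing of samples with the same number.

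The background level of 4.61 was 4.42 at the 90th percentile, 4.80 at the 99th and 5.77 from genes restricted to other organs, which was added after seeing the data. Dim genes (Rspo1 to Rspo4) are limited by signal over background.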
